A study of Mus musculus with 15 samples.

Results

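The comparison described here sets spleen T cells cultured for 14 h with concanavalin A (ConA) against spleen T cells cultured for 4 h with it. Expression was measured on 15 Affymetrix mouse arrays in 5 groups of 3, which were resting B cells, B cells given 25 ug/ml lipopolysaccharide for 4 h, resting T cells, and T cells given 7.5 ug/ml ConA for 4 h or for 14 h. The 6 arrays titled for T cells at 4 h and at 14 h were compared, with the resting (0 h) T cells given only for orientation. All groups came from mice of a mixed B6x129 background, were labelled as spleen, and the labels set the T cell groups apart only by the time with ConA. The labels describe cultured splenocytes and do not state how T cells were separated, the sex or age of the mice, or whether the 3 arrays of a group are separate animals or cultures, so p-values here measure only the spread between these arrays. Each gene was read from 1 probe set, the one with the highest mean over the 15 arrays, and 9045 of 18194 named genes reached a mean of at least 5 on the log2 scale in some group and were tested. Of these, 652 stayed under 5 in both T cell groups compared and passed only through another group. Values are log2 signals, on which a difference of 1 is 2-fold, and the lowest value in the table is 2.24, so a difference against a group close to that level understates the change.

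ConA is a plant lectin that binds sugars on surface glycoproteins, cross-links the T cell receptor complex and starts activation without antigen. In the first hours of activation, T cells switch on immediate early transcription factors and a first wave of cytokines, make interleukin 2 and its high-affinity receptor, and enlarge. They then leave the resting state, prepare for DNA synthesis and start to divide, while lymphokines and cytotoxic proteins accumulate. Equal amounts of RNA (100 ng) were labelled from each sample, so a change in the total RNA of a cell is not visible, and a value shared by all cells cannot be told apart from a change in the mix of cells.

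Before the genes of the comparison, some properties of the arrays bear on it. Xist, the RNA of the inactive X chromosome of female cells, read 4.33, 2.38 and 2.84 on the 4 h arrays and 11.70, 11.74 and 11.86 on the 14 h arrays, against 12.25 on average at 0 h. The 4 h arrays lay near the lowest value and the 14 h arrays far above it. The 3 Y-linked genes tested were all lower at 14 h, with log2 differences of -1.74 for Kdm5d, -1.57 for Eif2s3y and -1.32 for Uty, and none of them was near the lowest value in either group (as means over all probe sets of the gene, -0.57 for Kdm5d and -0.79 for Eif2s3y). At 0 h these 3 averaged 8.70 (Kdm5d), 10.73 (Eif2s3y) and 7.01 (Uty). Xist was thus near the lowest value at 4 h alone, while the Y-linked genes lay well above it at 0, 4 and 14 h. By these markers the mix of male and female cells at 4 h differed from that at 14 h and at 0 h. For any 1 gene a difference between times and a difference between preparations cannot be told apart, and this also holds for 4 h against 0 h. Of 271 tested genes on the X chromosome 33.9% were called higher and 15.9% lower at 14 h, with a median difference of 0.10. Over all tested genes these were 27.4%, 21.5% and 0.02. Single autosomes had 18.4% to 30.4% higher and 18.8% to 26.7% lower. Array 1 of the 4 h group had a 3′ minus 5′ difference of 5.35 on the dap spike-in, an added bacterial RNA, where the other 4 h and 14 h arrays had 1.39 to 1.77, so counts led with below were also made without it.

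**Figure D1:**
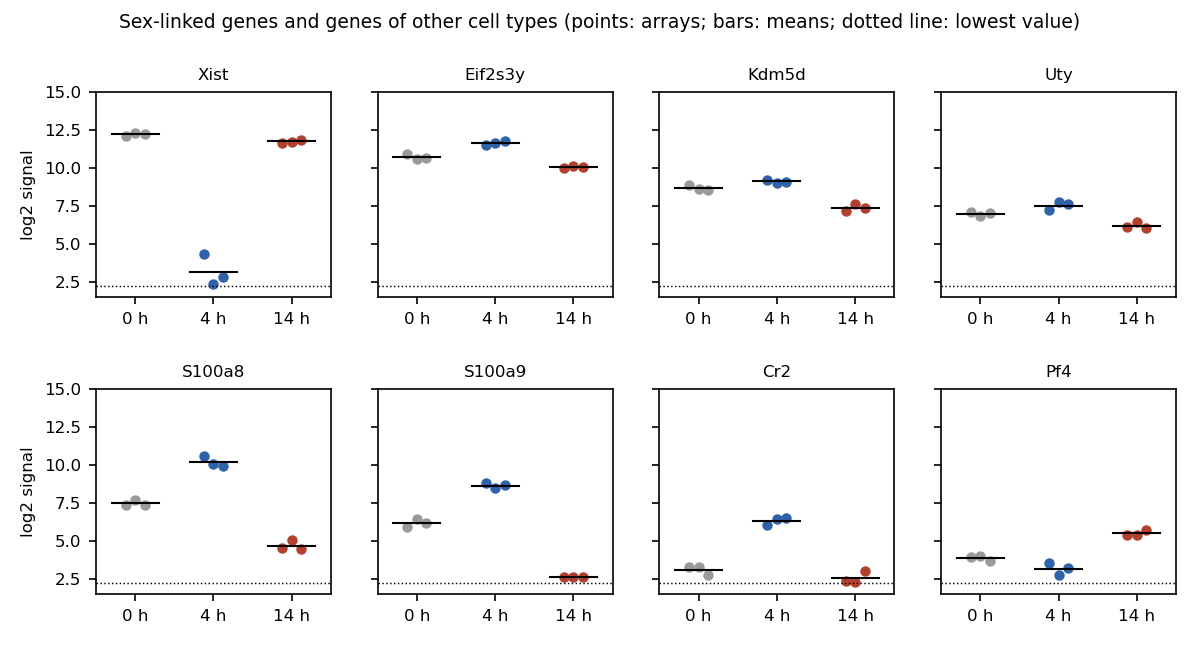
Log2 signal (y axis) of Xist, 3 Y-linked genes and 4 genes of other blood cells in T cells at 0, 4 and 14 h with ConA (x axis), 1 point per array with the group mean as a bar and the lowest value of the table dotted. Xist lay between 2.38 and 4.33 on the 4 h arrays and above 11 at 0 h and 14 h, while S100a8, S100a9 and Cr2 were highest at 4 h.

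The label of T cells was checked against marker genes. Of 11 T cell markers tested, Cd3d, Cd3e, Cd3g, Cd2, Cd5, Cd6 and Cd8a stayed above 10 in both groups and missed the test in the fit of all 15 arrays, while Cd4, Cd8b1 and Thy1 rose and Cd247 fell by 0.30. Cd8a, at 0.43, was called higher in fits of only the 6 arrays compared or the 9 T cell arrays and by its mean over all probe sets, Cd6, at 0.18, was called higher in the first and second of these, and Cd3g was called lower under each of the 3 other normalizations and without 4 h array 3. As the mean over probe sets Cd247 differed by -0.08 and lost its call (adjusted p = 0.61), and Cd4 differed by 0.95. The summed signal of these markers, as log2 of the sum of unlogged values, was 15.3 to 15.4 at 4 h and 15.3 to 15.4 at 14 h. Genes of other cells moved as well. The B cell list had 4 of 11 tested members lower (2 in the fit of the 6 arrays) and 0 higher, with Cr2, the complement receptor of mature B cells, at 6.05, 6.42 and 6.48 on the 4 h arrays and 2.33, 2.27 and 2.99 on the 14 h arrays, and its summed signal went from 8.98 to 9.28 at 4 h to 8.44 to 8.59 at 14 h; Cd79a and Pax5 lay at the lowest value in both groups. The neutrophil list had 3 of 3 tested members lower (S100a8, S100a9 and Mpo) and its summed signal was 10.5 to 11 at 4 h against 6.15 to 6.30 at 14 h, with Elane, Csf3r and Cxcr2 near the lowest value at both times. Of its members under the level filter, Ngp averaged 4.10 at 4 h and 2.61 at 14 h, Ltf 2.58 and 2.24, and Camp 2.49 and 2.24. Of the monocyte and macrophage list 3 of 12 were lower (Mpeg1, Lyz1, Lyz2, the last a call lost without 4 h array 2 or 3 or 14 h array 1 or 3), with a summed signal of 8.62 to 8.89 at 4 h and 8.03 to 8.23 at 14 h, while Csf1r, Adgre1, Cd14 and Itgam lay near the lowest value. The dendritic cell list had 3 of 6 higher (Ccl22, Fscn1, Ccr7), with a summed signal of 12.3 to 12.7 at 4 h and 13.9 to 14.0 at 14 h and with Itgax, Xcr1 and Siglech near the lowest value. Most of that sum came from Ccr7, which averaged 12.42 at 4 h and 13.78 at 14 h. Flt3 (2.64 at 4 h and 2.56 at 14 h), Zbtb46 (4.99 and 4.93) and Itgax missed the test. As means over probe sets Lyz1 differed by -0.30 and Fscn1 by 0.70, both called. The erythroid list had 4 of 9 lower and 1 higher at an unmoved sum (12.3 to 12.4 in both groups, nearly all of it from Tfrc, the transferrin receptor that activated T cells also express). Lower were Car2 (8.03 at 4 h and 6.02 at 14 h), Car1 (7.94 and 7.26), Ermap (4.11 and 2.52) and Klf1 (3.17 and 2.41). All 4 had been brighter at 0 h (9.91, 12.18, 8.13 and 7.94 in that order), and Slc4a1 was higher (2.77 and 3.28). The natural killer list had Nkg7 higher (9.55 at 4 h and 10.60 at 14 h) and Klrd1 lower (10.66 and 10.19) of 4. The call of Klrd1 was lost without any 1 of the 6 arrays. The summed signal of the natural killer list was 11.5 to 11.8 at 4 h and 11.8 at 14 h on each array. The plasma cell list had Jchain lower of 2, with a summed signal of 11.8 to 12 at 4 h and 11.3 to 11.5 at 14 h. Pf4 was higher of 2 platelet genes and Pecam1 was the 1 stromal or endothelial gene tested. Many tested members of these lists passed the level filter only through another group. A mean of 5 in a compared group was reached by 3 of the 12 monocyte and macrophage genes, 5 of the 11 B cell genes and 3 of the 9 erythroid genes. It was also reached by 2 of the 3 neutrophil and 3 of the 6 dendritic cell genes. With the filter on the 2 compared groups, the lower counts were 3 of 3, 3 of 5, 2 of 3 and 2 of 2 in the first 4 lists, and 3 of 3 dendritic cell genes were higher. The part of these other cells in the results that follow was not tested, apart from the values given beside them.

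At an adjusted p under 0.05 (limma, Benjamini-Hochberg over all tested genes), 4427 genes (48.9% of those tested) differed between the times. Of all tested genes 27.4% were called higher at 14 h (2479 genes) and 21.5% lower (1948 genes), and the median difference over all of them was 0.02. A call with at least a 2-fold difference was made for 376 genes higher (4.16%) and 300 genes lower (3.32%). With close to 1 in 2 genes called, a count of list members is read against these shares. Of 9045 tested genes, 2918 had every 14 h array above every 4 h array, and 2391 had every 14 h array below. A lack of overlap between the times was thus common and does not by itself mark out a gene named below. Apart from the marker lists, those with the highest share of tested members higher held enzymes of cholesterol synthesis, the DNA replication machinery, glycolytic enzymes and subunits of the respiratory chain, and those with the highest share lower held immediate early genes, circadian factors, p53 targets and genes of cholesterol export. Some genes stand on more than 1 list and are counted in each. The mean over all probe sets of each gene was tested as an alternative. Over 306 called genes, named by rule or below, it moved the difference of 83 by over 1.5 times and ended the call of 24, and it is given beside such genes. The mean takes in probe sets of any level, so a probe set without signal makes a difference smaller. For Fignl1, Prag1, Egr3 and Fdps, among others, the difference was 2 times smaller. How many of the 83 owe their move to such probe sets was not counted.

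**Figure D2:**
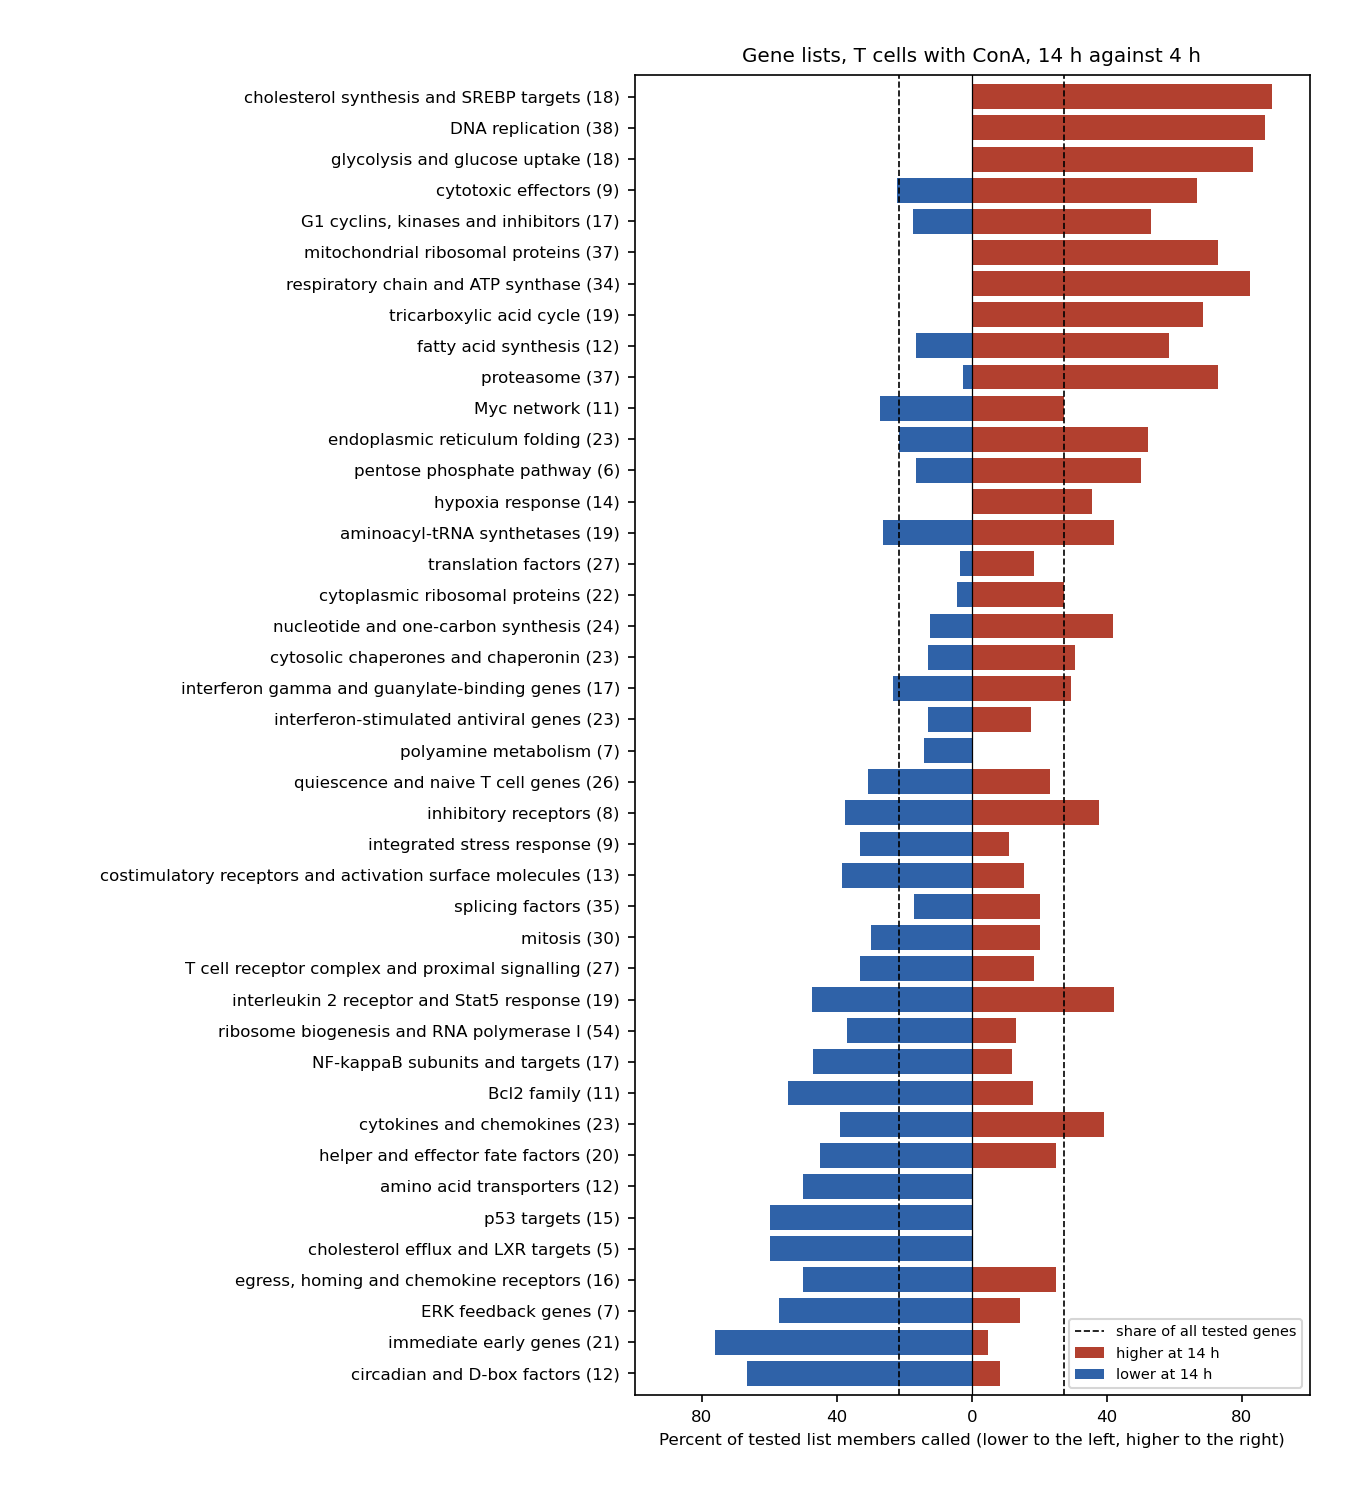
Share of tested members of 42 gene lists (y axis, number tested in brackets, ordered by median difference) that were called higher (red, to the right) or lower (blue, to the left) at 14 h, in percent (x axis), with dashed lines at the shares over all 9045 tested genes. In the cholesterol synthesis list 88.9% of members were higher and 0 were lower, and in the immediate early list 76.2% were lower and 4.76% higher.

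The genes that copy DNA rose together between 4 h and 14 h, and those that run mitosis did not. Of 45 genes on the DNA replication list 43 were on the arrays and 38 were tested; 33 of these (86.8%) were called higher and 0 lower, with a median difference of 0.71, and 32 were higher without the 4 h array with the weak spike-in. Uhrf1, which recognises newly copied DNA for methylation, read 7.03, 6.47 and 6.90 on the 4 h arrays and 9.12, 9.18 and 9.12 on the 14 h arrays (log2 difference 2.34, SE 0.16, adjusted p = 1.2e-07). Cdc6, which loads the replicative helicase at origins, read 3.54, 3.78 and 3.75 on the 4 h arrays and 5.89, 5.87 and 6.20 on the 14 h arrays (log2 difference 2.29, SE 0.14, adjusted p = 2.6e-08). In both genes every 14 h array lay above every 4 h array. Gins1, a subunit of the active helicase, differed by 2.01 and Rfc4, of the clamp loader, by 1.25. Among the MCM helicase subunits, Mcm3 rose by 1.20, Mcm5 by 0.81, Mcm2 by 0.80, Mcm7 by 0.70 and Mcm6 by 0.37, and Mcm4 (0.28) missed the test and passed it without 14 h array 3. The primase and polymerase alpha genes Pola1, Pola2, Prim1 and Prim2 rose by 0.72 to 0.89. Several of these genes had been brighter in resting cells than at 4 h: Uhrf1 averaged 8.37 at 0 h and Cdc6 6.58, so that Cdc6 at 14 h (5.98) was still below its 0 h level, whereas Gins1 (6.37 at 0 h) ended above it. The remaining members that missed the test were Tk1, Rpa1, Orc2 and Gins3. By the mean over probe sets, Gins1 differed by 1.03, Mcm6 by 0.23 and Prim2 by 0.37, all called, and Mcm4 (0.39) and Rpa1 (0.22) passed the test.

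Of 30 mitosis genes tested, 6 were higher (20% of them), 9 were lower (30%) and 15 missed the test, with a median difference of -0.11, and 13 of the 30 stayed under 5 in both T cell groups. Mki67, the Ki-67 protein that coats mitotic chromosomes, read 7.84, 7.64 and 7.69 on the 4 h arrays and 6.03, 6.42 and 6.35 on the 14 h arrays (log2 difference -1.46, SE 0.10, adjusted p = 7.0e-08). Its 14 h arrays all lay below its 4 h arrays, and these below the 0 h mean of 9.37. The lower erythroid markers given above also fell from 0 h to 4 h and on to 14 h. The part of such cells in the fall of Mki67 was not tested. Ccnb2, a cyclin of the mitotic kinase, fell by 1.28, Ube2c, the conjugating enzyme of the anaphase-promoting complex, by 1.30, and Nusap1, a spindle protein, by 1.40. Against them, Cdc25b, a phosphatase that activates the mitotic kinase, rose by 1.09, Cks2, a small subunit of that kinase, by 0.77, Aurka by 0.74 (a call lost without 14 h array 3, with no level filter and in the fit of the 9 T cell arrays), Cdk1 by 0.49 (lost in the fit of the 6 arrays) and the spindle checkpoint gene Mad2l1 by 0.44. Bub3, also of the checkpoint, was called higher by 0.21 from its brightest probe set, but another of its probe sets was called lower (-0.63), and its mean over probe sets was -0.15 with an adjusted p of 0.14. The call of Bub3 was also lost without array 3 of either time. Nusap1 differed by -0.70 as the mean over probe sets, a call kept.

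**Figure D3:**
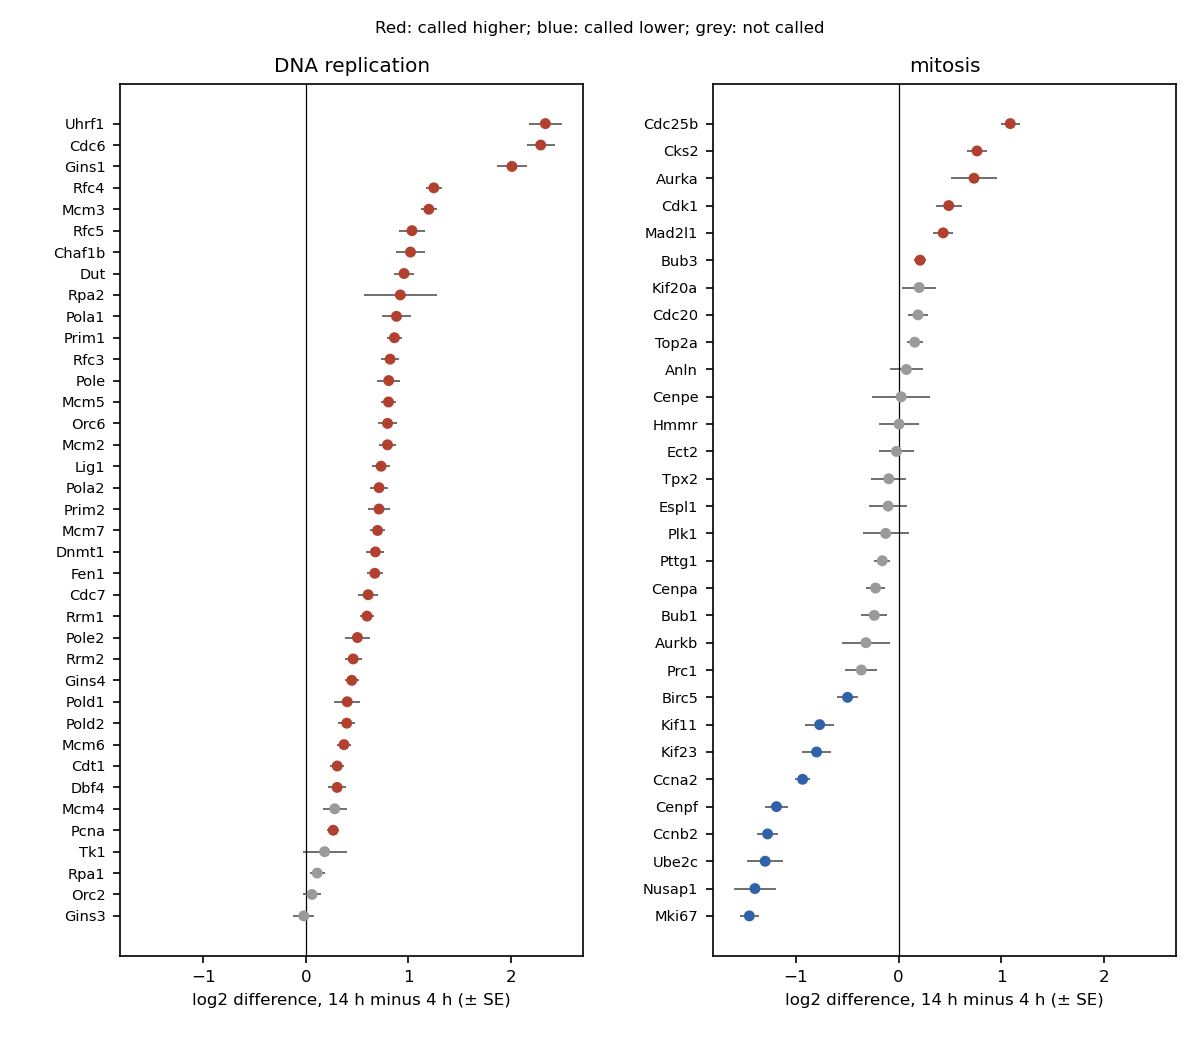
Log2 difference, 14 h minus 4 h (x axis, with its standard error), for each tested member of the DNA replication list (left, 38 genes) and the mitosis list (right, 30 genes), in order of size. In the replication list 33 points are red (called higher) and none is blue, and in the mitosis list 6 are red and 9 blue (called lower).

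The promoters of these lists, the 300 bases from 250 before to 50 after a gene's start in RefSeq (build GRCm38.p6), were searched on both strands for short motifs known from cell cycle genes. The E2F letters TTTGGCGC, TTTCCCGC, TTTGCCGC or TTTCGCGC lay in the promoters of 14 of the 33 tested replication genes with an entry (42.4%), against 5.15% of 7431 tested genes and 2.60% of all 27025 genes with one. Of those 14 genes 13 were called higher, among them Uhrf1, Cdc6, Mcm3 and Dnmt1, and Gins3 missed the test. Over the whole replication list 33 of 38 tested genes were called higher, so the matched genes do not stand out in this count. The mitosis promoters held these letters in 1 of 26 genes, and held the cell cycle homology letters TTTGAA or TTCGAA in 20 of 26 (76.9%, against 16.4% of tested genes and 21.7% of all) and the letters CCAAT in 21 of 26 (80.8%, against 43.3% and 41.1%). These shares are a description of the letters in the promoters and say nothing of binding. The 3 brightest called replication genes with an E2F match and the 2 brightest called mitosis genes with a cell cycle homology match are shown to set the arrangement of the letters side by side, in the direction of the gene, with each match in capitals; overlapping matches on opposite strands run together.
Mcm5 (chr8:75109259-75109558, + strand): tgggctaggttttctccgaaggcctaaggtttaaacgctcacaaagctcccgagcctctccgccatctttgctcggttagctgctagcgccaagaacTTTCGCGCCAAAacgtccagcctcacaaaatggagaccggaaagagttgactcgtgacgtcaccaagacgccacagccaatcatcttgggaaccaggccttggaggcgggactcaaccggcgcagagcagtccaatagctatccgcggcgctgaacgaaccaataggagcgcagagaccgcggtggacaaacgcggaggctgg
Mcm7 (chr5:138171834-138172133, - strand): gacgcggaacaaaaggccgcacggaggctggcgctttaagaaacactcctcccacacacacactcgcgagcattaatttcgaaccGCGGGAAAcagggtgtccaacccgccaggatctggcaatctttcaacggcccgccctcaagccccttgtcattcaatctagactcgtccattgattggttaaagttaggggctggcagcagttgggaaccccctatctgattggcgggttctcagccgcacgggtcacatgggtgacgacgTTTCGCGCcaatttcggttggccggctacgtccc
Mcm6 (chr1:128359656-128359955, - strand): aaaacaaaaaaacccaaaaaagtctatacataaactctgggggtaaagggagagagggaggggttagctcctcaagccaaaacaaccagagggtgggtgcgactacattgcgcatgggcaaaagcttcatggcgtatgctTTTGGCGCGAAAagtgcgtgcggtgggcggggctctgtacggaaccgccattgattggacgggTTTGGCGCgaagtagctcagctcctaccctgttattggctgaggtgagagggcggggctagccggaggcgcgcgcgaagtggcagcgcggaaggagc
Bub3 (chr7:131560120-131560419, + strand): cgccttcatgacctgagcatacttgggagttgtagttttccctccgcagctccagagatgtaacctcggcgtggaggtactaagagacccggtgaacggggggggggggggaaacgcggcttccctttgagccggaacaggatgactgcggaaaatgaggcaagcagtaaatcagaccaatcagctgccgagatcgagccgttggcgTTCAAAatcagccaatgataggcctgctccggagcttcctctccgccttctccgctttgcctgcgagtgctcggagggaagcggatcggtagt
Mki67 (chr7:135716330-135716629, - strand): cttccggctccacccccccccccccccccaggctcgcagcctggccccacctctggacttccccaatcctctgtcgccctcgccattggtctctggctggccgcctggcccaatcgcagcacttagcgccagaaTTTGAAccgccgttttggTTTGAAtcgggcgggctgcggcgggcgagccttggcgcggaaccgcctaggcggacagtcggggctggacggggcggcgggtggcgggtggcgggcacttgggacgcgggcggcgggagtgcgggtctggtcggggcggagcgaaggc

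Beside these shown genes, Mcm5 read 11.43, 11.21 and 11.21 on the 4 h arrays and 12.06, 12.10 and 12.11 on the 14 h arrays and Mcm7 11.30, 11.08 and 11.12 on the 4 h arrays and 11.82, 11.85 and 11.93 on the 14 h arrays, with no overlap between times. Over all genes called at least 2-fold higher, 295 had a promoter entry, of which 8.81% held the E2F letters and 54.9% the CCAAT letters, against 6.11% and 43.7% of the 229 called at least 2-fold lower.

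In the list of G1 cyclins, their kinases and inhibitors, 9 of 17 tested genes rose (52.9%) and 3 fell (17.6%), with a median of 0.37. The D-type cyclins Ccnd3 and Ccnd2 rose by 0.98 and 0.72, their kinases Cdk4 and Cdk6 by 0.74 and 0.71, and the S-phase kinase Cdk2 by 0.95. Ccne1, the cyclin partner of Cdk2, read 4.51, 4.96 and 3.60 on the 4 h arrays and 5.96, 5.55 and 6.15 on the 14 h arrays. Its arrays did not overlap, and its 4 h values were low. Inhibitors moved both ways: Cdkn2d rose by 1.28, Cdkn1a, the inhibitor p21, fell from 7.25 to 6.07 on average, Rb1 fell by 1.03 and Cdkn1b, the inhibitor p27, fell by 0.37 in a call lost in 9 of 19 alternative settings (by 0.23, adjusted p = 0.15, without 4 h array 1; also lost without 14 h array 1 or 3). The rise of Ccnd3 rests on its brightest probe set: as the mean over probe sets it differed by 0.14 and lost its call (adjusted p = 0.057). By the same measure Cdk2 differed by 0.48 and Rb1 by -0.51, both called, and Cdkn1b by -0.06.

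Among surface and effector molecules, the largest rise after Xist was in Lag3, an inhibitory receptor for major histocompatibility complex class II. Lag3 read 3.79, 3.33 and 3.61 on the 4 h arrays and 9.0, 8.90 and 9.01 on the 14 h arrays (log2 difference 5.39, SE 0.09, adjusted p = 1.5e-13), a difference of 42-fold from a low 4 h level, and was at the lowest values at 0 h (2.26). The list of inhibitory receptors did not move as a group, with 3 of 8 higher, 3 lower and a median of 0.00. Ctla4, which competes for the ligands of Cd28, rose from 10.04 to 10.79. Cd200, which the list also holds though it is the ligand of an inhibitory receptor, rose by 0.51. Pdcd1, the receptor PD-1, read 8.56, 8.77 and 8.63 on the 4 h arrays and 7.19, 7.36 and 7.12 on the 14 h arrays, with every 14 h array below every 4 h array, and Btla and Cd160 fell by 0.85 and 0.83.

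Of 9 cytotoxic effector genes tested 6 were higher and 2 lower, and 7 of the 16 on the list stayed under the level filter. Gzmb, the granule protease granzyme B, read 9.75, 9.71 and 9.69 on the 4 h arrays and 12.71, 12.56 and 12.64 on the 14 h arrays (log2 difference 2.92, SE 0.12, adjusted p = 1.0e-09), or 7.59-fold higher, having averaged 7.91 at 0 h. The protease inhibitors Serpinb9 and Serpinb6b, which protect a cell from its own granzymes, rose by 1.21 and 1.17. Nkg7, a granule membrane protein, rose by 1.05, still under its 0 h mean of 11.75. Srgn, the proteoglycan core of the granules, fell by 0.42 and Ctsc, the protease that activates granzymes, by 0.32. The pore-forming Prf1 (0.39) missed the test and passed it without 4 h array 2. The natural killer markers that move beside this group are given above. Ctsc differed by -0.69 as the mean over probe sets.

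Cytokine and chemokine genes split: 9 of 23 tested rose, 9 fell and the median was -0.23. Il2, the T cell growth factor, read 8.77, 8.43 and 8.49 on the 4 h arrays and 9.51, 9.32 and 9.48 on the 14 h arrays (log2 difference 0.87, SE 0.13, adjusted p = 1.2e-04). Ifng, interferon gamma, read 8.69, 8.40 and 8.43 on the 4 h arrays and 9.84, 9.99 and 9.84 on the 14 h arrays (log2 difference 1.38, SE 0.21, adjusted p = 1.3e-04). Neither gene's arrays overlapped between the times, and both had been far lower at 0 h (3.29 and 5.92). Lif rose by 1.17, Il17a by 0.87, Lta by 0.78 and Ccl1 by 1.21. In the other direction, Il6 read 11.64, 11.59 and 11.49 on the 4 h arrays and 8.52, 8.56 and 8.43 on the 14 h arrays (log2 difference -3.07, SE 0.07, adjusted p = 3.4e-12), and Il4, the cytokine of type 2 helper cells, read 7.44, 7.08 and 7.23 on the 4 h arrays and 5.34, 5.26 and 5.04 on the 14 h arrays (log2 difference -2.04, SE 0.10, adjusted p = 4.2e-09). At 14 h both stayed above their 0 h means of 3.61 and 2.60. The chemokine Ccl3 fell by 1.79, Ccl5 by 1.65 and Xcl1 by 1.51, and Tnf by 0.69. Csf1, the macrophage growth factor, fell by 2.53 to near the lowest value. Il21, a helper cytokine, fell by 2.04 from its brightest probe set and was called higher (0.51) from another. Il6 is also a product of myeloid cells, whose markers fell as given above, and their part in its fall was not tested. Osm was called higher by 0.83, a call lost without the 4 h and the 0 h array with the weak spike-in, and Tgfb1 and Fasl were called higher by 0.31 and 0.27, calls lost in 14 and 13 of 19 alternative settings, without 4 h array 1 or 14 h array 2 among others. Without the 2 arrays with the weak spike-in the list counted 6 higher and 9 lower. As the mean over probe sets Il21 differed by -0.76, Tgfb1 by 0.04 and Fasl by 0.50.

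**Figure D4:**
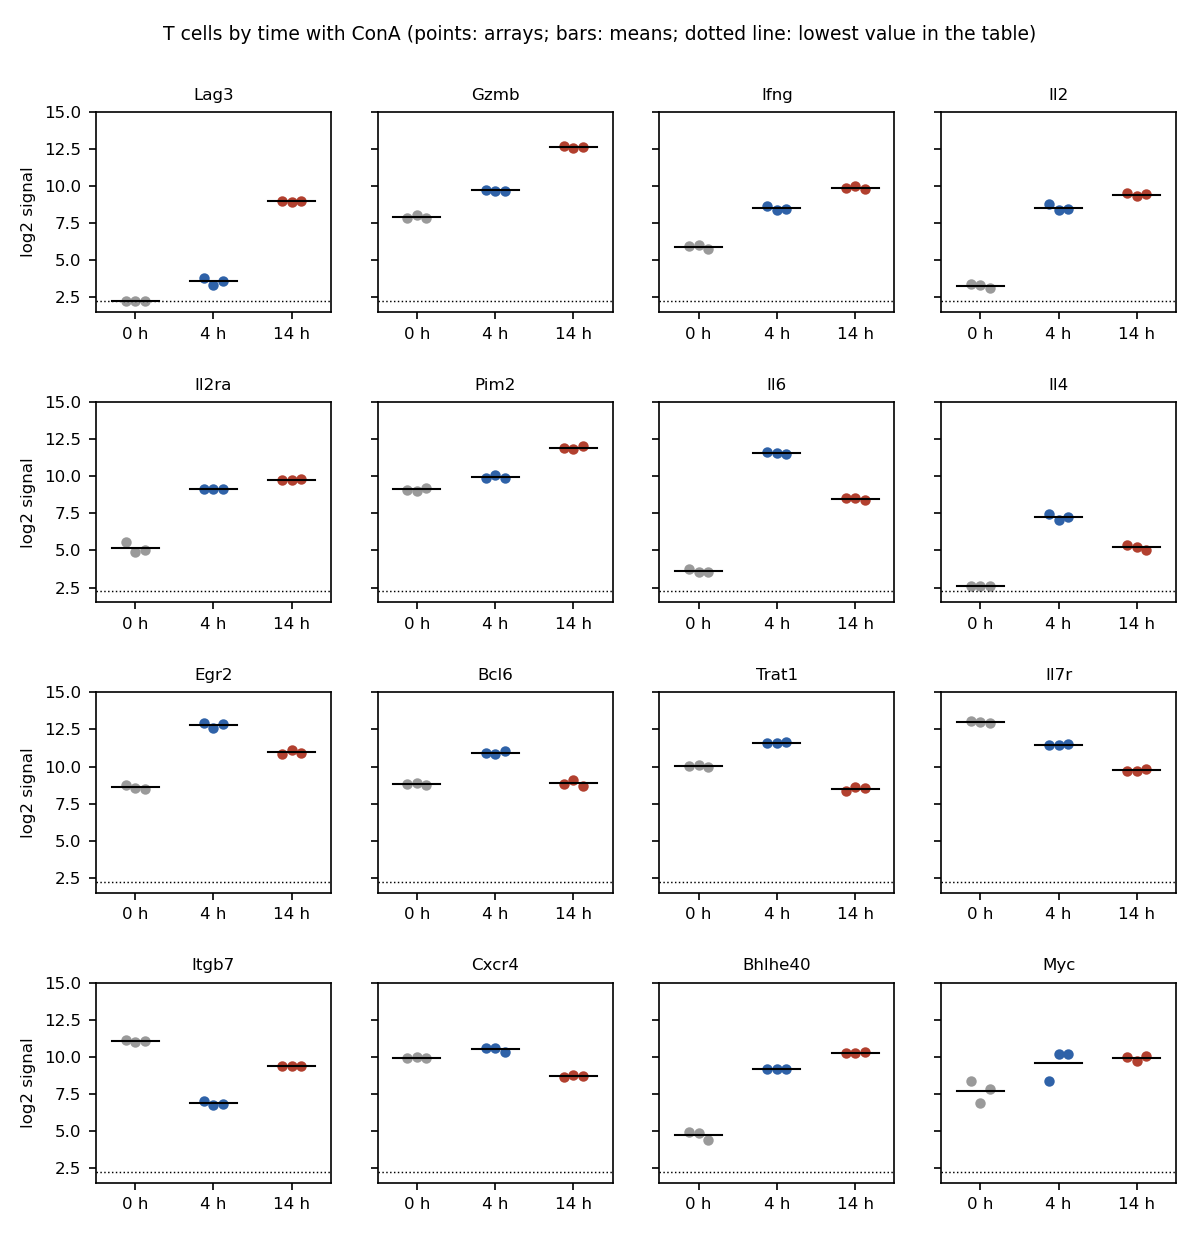
Log2 signal (y axis) of 16 genes in T cells at 0, 4 and 14 h with ConA (x axis), 1 point per array with the group mean as a bar and the lowest value of the table dotted. Lag3, Gzmb, Ifng, Il2, Il2ra, Pim2, Itgb7 and Bhlhe40 lay higher at 14 h than at 4 h on every array, Il6, Il4, Egr2, Bcl6, Trat1, Il7r and Cxcr4 lay lower, and the Myc arrays overlapped.

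The interleukin 2 receptor and its signalling genes also went both ways, with 8 of 19 higher and 9 lower. The receptor chains Il2ra and Il2rb rose, Il2ra from 9.15 to 9.76 and Il2rb by 0.58. Pim2, a survival kinase induced by Stat5, read 9.91, 10.10 and 9.90 on the 4 h arrays and 11.92, 11.84 and 12.07 on the 14 h arrays (log2 difference 1.98, SE 0.12, adjusted p = 4.5e-08), while its relative Pim1 fell by 0.81. Socs2 rose by 1.25, and the feedback inhibitor Socs1 fell by 0.61. Il7r, the interleukin 7 receptor chain of resting T cells, continued down from 13.0 at 0 h to 11.46, 11.49 and 11.50 on the 4 h arrays and 9.70, 9.68 and 9.85 on the 14 h arrays. Stat5b, which carries the interleukin 2 signal, fell by 0.67. Il2rb differed by 0.87 as the mean over probe sets.

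Of 20 factors that set helper and effector fates, 9 were lower and 5 higher. Bcl6, the repressor of follicular helper cells, read 10.92, 10.86 and 11.04 on the 4 h arrays and 8.84, 9.10 and 8.69 on the 14 h arrays (log2 difference -2.07, SE 0.10, adjusted p = 5.4e-09), back at its 0 h mean of 8.82. Ahr fell by 1.63, Foxp3, the factor of regulatory T cells, by 1.27, Runx1 by 1.22, and Batf by 0.98. Runx3 and Tbx21, factors of cytotoxic and type 1 helper cells, rose by 0.89 and 0.59, Zbtb32 by 1.25 at a low level, Lef1 by 0.83 and Id2 by 0.43. Irf4, the factor most raised over resting cells among these at 4 h (4.85 at 0 h against 13.15), Gata3 and Eomes missed the test; Irf4, at -0.46, was called lower in 6 of 19 alternative settings. Averaged over probe sets, Ahr differed by -0.81 and Runx1 by -0.49, both called.

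The immediate early genes fell as a group: 16 of 21 tested were lower and 1 higher, with a median of -0.60. Egr2, a zinc finger factor of the receptor response, read 12.93, 12.58 and 12.90 on the 4 h arrays and 10.87, 11.10 and 10.92 on the 14 h arrays (log2 difference -1.84, SE 0.14, adjusted p = 2.0e-07). Nr4a2, an orphan nuclear receptor, read 10.89, 10.71 and 10.92 on the 4 h arrays and 8.54, 8.79 and 8.83 on the 14 h arrays (log2 difference -2.12, SE 0.15, adjusted p = 1.4e-07). Both remained above their 0 h means of 8.60 and 5.30. Egr3 fell by 1.43, Egr1 by 1.34, Fosl2 by 1.10, Nr4a1 by 0.80 and Fos by 0.65. Klf6, a zinc finger factor, was the exception, higher by 0.52. Of 7 ERK feedback genes 4 were lower, Spred1 by 1.08, Spred2 by 0.94, Dusp6 by 0.76 and Dusp10 by 0.57, and Dusp4 was called higher by 0.24, a call lost without the weak 4 h array, without 14 h array 2 or 3 and under each other normalization. Over all their probe sets, Nr4a2 differed by -1.07 and Egr3 by -0.71, both called.

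Of 17 NF-kappaB subunits and targets 8 were lower and 2 higher. The inhibitors Nfkbid and Tnfaip3 fell by 1.19 and 0.78 and the subunit Relb by 0.73; as the mean over probe sets Tnfaip3 differed by -0.31 and lost its call (adjusted p = 0.48). Bcl2l1, which encodes the survival protein Bcl-xL, read 8.32, 7.95 and 7.85 on the 4 h arrays and 9.11, 9.11 and 9.09 on the 14 h arrays and Nfkbie rose by 0.45. The Bcl2 family it belongs to had 6 of 11 tested genes lower and 2 higher, a count of lower genes that came to 3 without array 3 of either time. Bcl2l11, which encodes the killer protein Bim, read 11.38, 11.34 and 11.40 on the 4 h arrays and 10.30, 10.31 and 10.32 on the 14 h arrays (log2 difference -1.07, SE 0.06, adjusted p = 1.7e-08). Bik, also a killer, fell by 0.60 and Bbc3 was called lower by 0.68, a call lost without 4 h array 1 or 3 or 14 h array 1 or 3. The count of 2 higher genes, Bcl2l1 and Bad, came to 1 without 4 h array 2 or 3 or 14 h array 1 or 2 and with no level filter. Among p53 targets 9 of 15 were lower and 0 higher, with a median of -0.45. The targets Aen, a nuclease, and Btg2 fell by 1.02 and 0.80, and Mdm2 (-0.10) missed the test.

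Circadian and D-box factors had the lowest median (-0.87) of the 42 lists that are not cell type or sex markers, with 8 of 12 lower and 1 higher. Per2, a repressor of the clock, read 6.02, 6.16 and 6.25 on the 4 h arrays and 3.50, 4.16 and 3.71 on the 14 h arrays (log2 difference -2.35, SE 0.15, adjusted p = 4.7e-08). Tef, a D-box activator, read 7.74, 7.73 and 7.54 on the 4 h arrays and 5.86, 5.79 and 6.09 on the 14 h arrays, with no overlap between the times. Ciart, Nr1d2, Cry2 and Per1 fell by 1.54, 1.29, 1.23 and 1.10. Bhlhe40, a repressor that activation induces, went the other way from 9.17 to 10.26. The core activators Clock (0.07) and Arntl (-0.06) missed the test, though the mean of Clock over its probe sets was called lower (-0.19, adjusted p = 0.034). By that mean Tef differed by -0.75 and Nr1d2 by -0.65, both called. The clock time of harvest is not in the labels used here.

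Signalling from the receptor showed single large changes. Trat1, an adaptor of the T cell receptor complex, read 11.60, 11.60 and 11.63 on the 4 h arrays and 8.38, 8.64 and 8.52 on the 14 h arrays (log2 difference -3.09, SE 0.07, adjusted p = 2.2e-12), which put it below its 0 h mean of 10.03. Ubash3a, a phosphatase-like suppressor of receptor signals, read 5.89, 6.30 and 6.48 on the 4 h arrays and 8.14, 7.99 and 8.24 on the 14 h arrays (log2 difference 1.90, SE 0.13, adjusted p = 9.4e-08). The list as a whole had 5 of 27 higher and 9 lower, with a median of -0.12, and 8 were higher in fits of only the 6 arrays or the 9 T cell arrays. The Src kinase Fyn fell by 1.21, the Ras activator Rasgrp1 by 0.88, and Cblb, a ubiquitin ligase that restrains activation, by 0.78. The coreceptor Cd4 rose by 1.44 and Cd8b1 by 0.57, both below their 0 h means of 7.61 and 13.22. Themis rose by 0.61 from its brightest probe set and was called lower by another (-0.30). In the probe set means, Ubash3a differed by 0.95, Rasgrp1 by -0.53, Cblb by -0.35, Cd4 by 0.95 and Themis by 0.36, all called.

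Of 13 costimulatory and activation surface genes 5 were lower and 2 higher. Icos fell by 1.09, the hyaluronan receptor Cd44 by 0.89 and the early activation antigen Cd69 by 0.78, while Tnfrsf18 and Tnfrsf4 (GITR and OX40) rose by 0.93 and 0.82. Cd28, Cd27 and the transferrin receptor Tfrc missed the test, which Cd27 (-0.20) passed in 7 of 19 alternative settings, without 14 h array 2 among them. As means over probe sets Cd44 differed by -0.44 and stayed called, Tfrc (0.30) was called higher, and 4 of the list were higher.

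Trafficking genes moved in both directions, with 4 of 16 higher, 8 lower and a median of -0.52. Itgb7, the integrin chain of gut homing, read 7.0, 6.74 and 6.84 on the 4 h arrays and 9.36, 9.39 and 9.36 on the 14 h arrays (log2 difference 2.51, SE 0.07, adjusted p = 2.3e-11), part of the way back to its 0 h mean of 11.07. Ccr7, the lymph node homing receptor, read 12.18, 12.58 and 12.49 on the 4 h arrays and 13.80, 13.73 and 13.81 on the 14 h arrays and ended above its 0 h mean of 12.42. Itgal rose by 0.81 and S1pr4 by 0.69 (a call lost with quantile normalization and with no level filter). Cxcr4 read 10.60, 10.56 and 10.33 on the 4 h arrays and 8.67, 8.74 and 8.72 on the 14 h arrays (log2 difference -1.79, SE 0.07, adjusted p = 6.4e-10), Cxcr6 fell by 1.82, Gpr183 by 1.26 and Ccr2 by 1.06. Ccr7 is also a marker of mature dendritic cells, and Ccl22 and Fscn1 of that list rose with it, while Flt3, Zbtb46 and Itgax missed the test. In the overlapping list of quiescence and naive T cell genes, 6 of 26 were higher and 8 lower (5 in the fit of the 6 arrays) at a median of 0.00. Pik3ip1, an inhibitor of phosphoinositide 3-kinase, recovered from 7.85 to 9.51 against 10.49 at 0 h, Tsc22d3 rose by 0.70 and Klf2 by 0.32. Foxp1 and Satb1, which maintain the naive state, fell by 0.49 and 0.44. As the mean over probe sets Tsc22d3 differed by 0.40, a call kept.

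Myc, the transcription factor after which the series is titled, read 8.37, 10.21 and 10.19 on the 4 h arrays and 9.96, 9.69 and 10.03 on the 14 h arrays, with overlap between the times and a difference of 0.30 (SE 0.43, adjusted p = 0.6). The low 4 h value is that of the array with the weak spike-in, and without it the difference was -0.31 (adjusted p = 0.45), so no direction can be given. At 0 h its arrays averaged 7.68. Of 11 genes of the Myc network 3 were higher and 3 lower. Max, the obligate partner of Myc, read 8.20, 8.86 and 8.81 on the 4 h arrays and 9.58, 9.68 and 9.62 on the 14 h arrays, with the weak array lowest, and rose by 1.0. The antagonist Mxd4 also rose by 1.0, while Mnt, Mga and Mlxip fell by 0.70, 0.72 and 0.65. By the mean over probe sets, Mxd4 differed by 0.50, Mnt by -0.35 and Mga by -0.35, all called.

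Genes that build ribosomes were mostly flat or lower. Of 54 ribosome biogenesis and RNA polymerase I genes 7 were higher, 20 lower (37%) and 27 missed the test, at a median of -0.13. Noc3l, of the 60S assembly path, read 8.80, 8.94 and 8.97 on the 4 h arrays and 8.10, 8.07 and 7.96 on the 14 h arrays, Rrp1b fell by 0.72, the polymerase I subunit Polr1b by 0.64 and Gtpbp4 by 0.58. The polymerase I factor Ubtf rose by 0.61 and the subunit Polr1c by 0.36. Nop10, Wdr74, Ddx52, Brix1 and Npm1 were called higher by 0.17 to 0.31. The calls of Brix1 and Npm1 were lost in 9 and 12 of 19 alternative settings, the count of higher genes came to 4 without 14 h array 2, and another probe set of Brix1 was called lower (-0.46). Nucleolin (Ncl), fibrillarin (Fbl) and Nop56 differed by -0.04 to 0.01 and missed the test, but Ncl was called lower (-0.19, adjusted p = 0.040) without the 2 arrays with the weak spike-in. The cytoplasmic ribosomal proteins had 6 of 22 higher and 1 lower at a median of 0.08, a count of higher genes that came to 2 without 14 h array 3 and to 2 with array medians set equal. The largest differences were those of Rpl14 (0.82) and Rps6 (0.50), which rose, and of Rpl12, which fell by 0.67. Averaged over probe sets, Gtpbp4 (-0.26), Ddx52 (0.17) and Brix1 (-0.13) lost their calls, and Noc3l (-0.54), Rrp1b (-0.43) and Rps6 (0.25) kept them.

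The ribosomes of mitochondria differed from that pattern in count, with 27 of 37 genes higher (73%) and 0 lower at a median of 0.36. Mrps31, Mrps35, Mrpl4 and Mrps22 had the largest differences, 0.70 to 0.83. Mrps35 read 8.36, 8.15 and 8.28 on the 4 h arrays and 9.07, 9.03 and 9.05 on the 14 h arrays, with no overlap. Of 19 aminoacyl-tRNA synthetases 8 were higher, led by Wars (0.91), Sars (0.62), Qars (0.61) and Kars (0.44), and 5 lower, led by Farsa (-0.36), a count that came to 3 without 4 h array 3 or 14 h array 2 or 3. Kars read 10.17, 10.76 and 10.74 on the 4 h arrays and 10.96, 10.94 and 11.10 on the 14 h arrays, lowest on the weak 4 h array, and its call was lost without that array (0.25, adjusted p = 0.10) and without 14 h array 3. Of 27 translation factors 5 were higher and 1 lower (18.5% and 3.7%), with Eif2b1 at 0.66 and Eif5 lower by 0.21; 3 were higher without 14 h array 2 and 8 by the mean over probe sets, and the call of Eif5 was lost without 4 h array 2 or 14 h array 3 and by that mean. Splicing factors counted 7 higher and 6 lower of 35, with Hnrnpl higher by 0.53 and U2af1 lower by 0.64, and 3 were lower without 14 h array 1. Of 24 nucleotide and one-carbon enzymes 10 were higher and 3 lower (5 with the spike-in as a covariate). The serine synthesis enzymes Psph and Phgdh rose by 1.20 and 1.0, and Shmt1 and the CTP synthase Ctps fell by 0.76 and 0.52. Of 7 polyamine genes 1 was called (2 lower and 1 higher without 4 h array 3; 2 lower with array medians set equal or quantile normalization, Odc1 being the other), the spermine oxidase Smox, which fell by 1.48, and ornithine decarboxylase Odc1 (-0.18) missed the test. Over all their probe sets, Mrps31 differed by 0.41, Qars by 0.36, Farsa by -0.86 and Hnrnpl by 0.26, all called, and 1 mitochondrial ribosomal gene was lower.

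Cholesterol synthesis had the highest share of members called higher among the 42 lists that are not markers. Of 24 listed genes 20 were on the arrays and 18 tested, and 16 of these (88.9%) were higher and 0 lower, at a median of 0.93, and 16 were also higher without the weak array. Mvd, the mevalonate decarboxylase, read 4.15, 4.14 and 4.75 on the 4 h arrays and 6.19, 6.14 and 6.54 on the 14 h arrays (log2 difference 1.94, SE 0.16, adjusted p = 4.7e-07). Fdps, the farnesyl diphosphate synthase, read 9.38, 9.55 and 9.53 on the 4 h arrays and 11.01, 11.01 and 11.12 on the 14 h arrays (log2 difference 1.56, SE 0.12, adjusted p = 2.7e-07). Both rose with no overlap, and Fdps also lay above its 0 h mean of 8.51. Further down the pathway Fdft1 rose by 1.14, Sqle by 0.73, Lss by 1.02, Msmo1 by 1.14 and Dhcr7 by 1.23, and Idi1 and Hmgcs1 upstream of them by 1.04 and 0.73. Insig1, which holds the SREBP activators in the endoplasmic reticulum, was called higher by 0.26, a call lost without 4 h array 2 or 14 h array 1 or 2, and the activator gene Srebf2 (-0.05) and Hsd17b7 missed the test. In the probe set means, Fdps differed by 0.78, Fdft1 by 0.63, Msmo1 by 0.74 and Lss by 0.37, all called, and Srebf2 (-0.18, adjusted p = 0.037) was called lower. The sterol element letters TCACCCCAC lay in 1 of 14 promoters of this list, that of Hmgcs1, against 0.632% of tested genes. The letters CCAAT lay in 14 of 14, against 43.3% of tested genes. They were as common in other lists, in 10 of 10 promoters of circadian and D-box factors and 18 of 20 of endoplasmic reticulum folding genes. The Hmgcs1 promoter is shown, with the sterol element letters in capitals, as the 1 match of the list.
Hmgcs1 (chr13:119690101-119690400, + strand): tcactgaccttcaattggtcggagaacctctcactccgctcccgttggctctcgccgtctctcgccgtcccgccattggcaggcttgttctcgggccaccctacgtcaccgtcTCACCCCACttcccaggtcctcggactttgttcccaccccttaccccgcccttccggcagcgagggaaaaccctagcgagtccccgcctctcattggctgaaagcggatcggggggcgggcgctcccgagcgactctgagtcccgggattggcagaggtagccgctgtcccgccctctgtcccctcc

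The genes of cholesterol export moved the other way, with 3 of 5 lower and 0 higher. Abca1, the transporter that loads cholesterol onto lipoprotein, read 7.60, 7.48 and 7.63 on the 4 h arrays and 6.15, 6.20 and 6.01 on the 14 h arrays (log2 difference -1.45, SE 0.08, adjusted p = 1.6e-08). Mylip, which marks the lipoprotein receptor for degradation, fell by 0.87 and Abcg1 by 0.48, and all 3 were already lower at 4 h than at 0 h. In fatty acid synthesis 7 of 12 were higher and 2 lower. The desaturases differed in direction: Scd1 read 5.74, 5.37 and 5.74 on the 4 h arrays and 3.56, 3.51 and 3.63 on the 14 h arrays (log2 difference -2.05, SE 0.09, adjusted p = 1.4e-09) and Scd2 rose by 0.84. Elovl6, an elongase, fell by 1.76, while Fads1 rose by 1.16, the carboxylase Acaca by 0.65 and the synthase Fasn by 0.25. As means over probe sets Abca1 differed by -0.49, Scd1 by -1.02, Scd2 by 0.43 and Acaca by 0.31, all called, and Abcg1 (-0.25, adjusted p = 0.074) lost its call.

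Of 18 glycolytic genes 15 (83.3%) were higher and 0 lower, at a median of 0.62. Tpi1, the triose phosphate isomerase, read 9.46, 9.25 and 9.27 on the 4 h arrays and 11.81, 11.80 and 11.91 on the 14 h arrays (log2 difference 2.51, SE 0.08, adjusted p = 8.8e-11), a 5.71-fold difference that its other probe sets shared (2.60 and 2.51). Hk2, the inducible hexokinase, read 7.72, 7.82 and 7.73 on the 4 h arrays and 8.80, 8.78 and 9.05 on the 14 h arrays, against 4.99 at 0 h, with no overlap between the times. Pkm rose by 1.0, Pgk1 by 0.97, Gapdh by 0.96, Aldoa by 0.69 and Ldha by 0.39. Hk1, Pfkfb3 and the lactate carrier Slc16a1 missed the test, which Hk1 passed without the weak 4 h array (0.29, adjusted p = 0.022) and as the mean over probe sets (0.40). Of 14 hypoxia response genes 5 were higher (3 of 11 with the level filter at 7) and 0 lower, with Ankrd37 at 1.37 and Bnip3 at 0.88, and Vegfa and Adm stayed near the lowest value. In the pentose phosphate pathway Pgls, Taldo1 and Tkt rose by 0.35 to 0.91 and Rpia fell by 0.39, out of 6 tested.

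In mitochondria, 13 of 19 genes of the tricarboxylic acid cycle (68.4%) and 28 of 34 of the respiratory chain and ATP synthase (82.4%) were higher, and 0 in either list were lower. The medians were 0.34 and 0.35. Sdhd, of complex II, read 9.67, 9.56 and 9.62 on the 4 h arrays and 10.41, 10.48 and 10.51 on the 14 h arrays (log2 difference 0.85, SE 0.06, adjusted p = 7.8e-08). Citrate synthase (Cs) rose by 0.70, Suclg1 by 0.68 and Dlat, of the pyruvate dehydrogenase complex, by 0.92. In the list of the respiratory chain and ATP synthase, which does not hold Sdhd, the differences ran from 0.10 for Cox4i1 to 0.69 for Atp5a1. Ndufa10, of complex I, read 10.80, 10.76 and 10.72 on the 4 h arrays and 11.31, 11.31 and 11.37 on the 14 h arrays, with no overlap, and Atp5b, of the ATP synthase, 12.53, 12.99 and 12.92 on the 4 h arrays and 13.33, 13.38 and 13.31 on the 14 h arrays, with the weak array lowest. By the mean over probe sets, Dlat differed by 0.53 and Ndufa10 by 0.32, both called, and 2 tricarboxylic acid cycle genes were lower; 1 was lower without the 2 weak arrays or with the spike-in as a covariate.

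**Figure D5:**
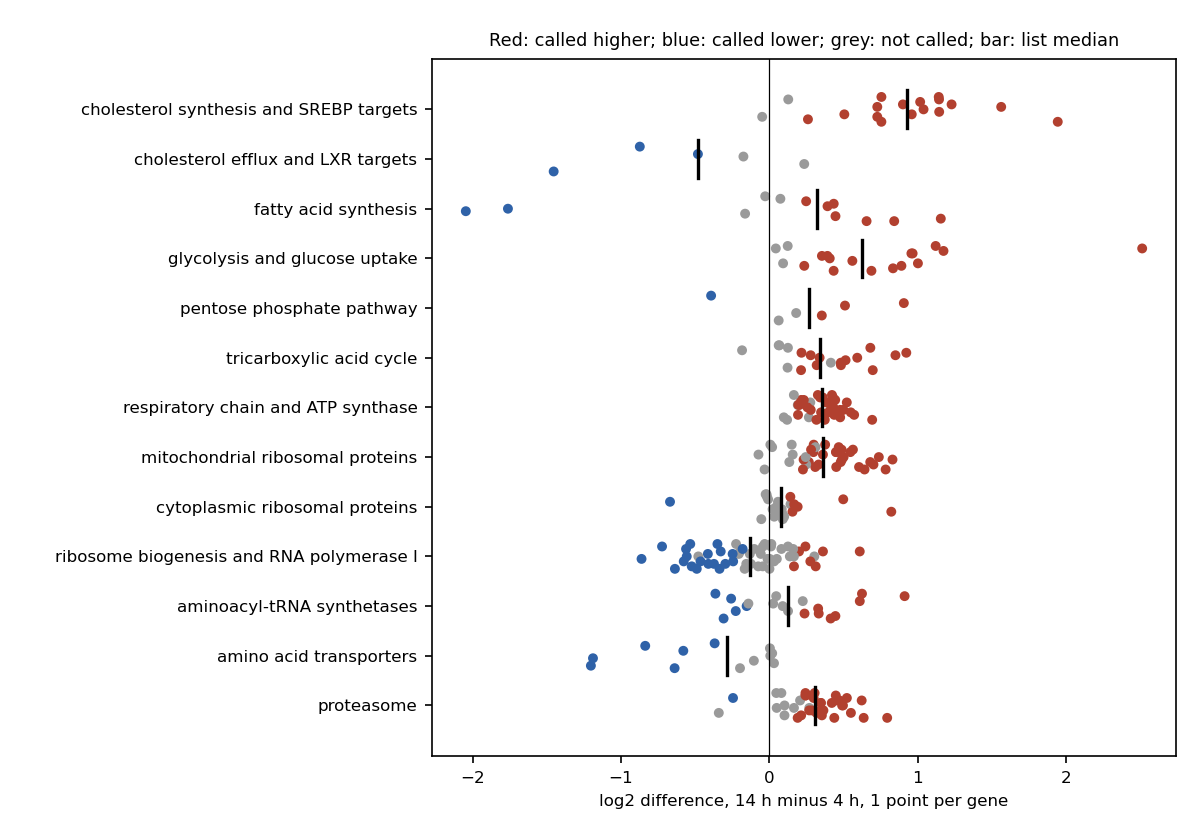
Log2 difference, 14 h minus 4 h (x axis), for each tested gene of 13 lists of metabolism, ribosomes and protein turnover (y axis), coloured by call, with the list median as a black bar. The medians of cholesterol synthesis (0.93) and glycolysis (0.62) lie to the right of those of the cytoplasmic ribosomal proteins (0.08) and ribosome biogenesis (-0.13).

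Of 37 proteasome genes 27 (73%) were higher and 1 lower, at a median of 0.30. Psmb3 rose by 0.64, Psma1 by 0.62 and the immunoproteasome subunit Psmb8 by 0.55, and Psmb10, also of the immunoproteasome, fell by 0.25. Psmd7 differed by 0.79 and read 9.28, 10.38 and 10.40 on the 4 h arrays and 10.83, 10.84 and 10.76 on the 14 h arrays, lowest on the weak 4 h array, and differed by 0.42 without it (adjusted p = 0.021), and its call was lost with no level filter and in fits of only the 6 or the 9 arrays. Averaged over probe sets, Psma1 differed by 0.12 (adjusted p = 0.25) and Psmd7 by 0.16 (adjusted p = 0.052), and both calls were lost; 2 of the list were lower by that mean. In the endoplasmic reticulum, 12 of 23 folding genes were higher and 5 lower, the latter a count that came to 3 without 4 h array 1 or 14 h array 3 and to 2 without 14 h array 2, in the fit of the 6 arrays or by the mean over probe sets. Sdf2l1, Pdia4 and Edem1 rose by 0.61 to 0.86, and Dnajb9 and Syvn1 fell by 0.50 and 0.55. Of 23 cytosolic chaperones 7 were higher and 3 lower. Hspa1b, an inducible Hsp70, read 7.75, 7.14 and 7.36 on the 4 h arrays and 5.86, 6.10 and 5.82 on the 14 h arrays, against 12.52 at 0 h, and Hspa1a likewise fell by 1.57. The mitochondrial pair Hspe1 and Hspd1 rose by 0.48 and 0.43. Amino acid transporters had 6 of 12 lower and 0 higher. Slc7a5, the large neutral amino acid transporter, read 10.45, 9.97 and 10.06 on the 4 h arrays and 8.86, 9.03 and 9.03 on the 14 h arrays (log2 difference -1.19, SE 0.15, adjusted p = 2.7e-05), Slc7a1 fell by 1.20 and Slc1a5 by 0.58, and Slc3a2 (0.02) missed the test. In the integrated stress response, the activator Atf4 fell by 0.54 and Cebpb and Ppp1r15a by 0.52 and 0.38, Ddit4 rose by 0.61, and the other 5 tested missed the test. Over all their probe sets, Pdia4 differed by 0.32, Slc7a1 by -0.74, Slc1a5 by -0.97 and Atf4 by -0.19, all called, and Cebpb (-0.39, adjusted p = 0.088) lost its call.

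Interferon genes did not move as a group. Of 23 antiviral genes 4 were higher and 3 lower, and of 17 interferon gamma and guanylate-binding genes 5 were higher and 4 lower, shares near or under those of all genes, and the 4 higher antiviral genes came to 2 without 4 h array 2 or 14 h array 3 and to 1 in fits of only the 6 or the 9 arrays, while 6 antiviral genes were lower by the mean over probe sets. Zbp1, a sensor of nucleic acids, read 8.83, 8.65 and 8.87 on the 4 h arrays and 9.92, 9.93 and 9.90 on the 14 h arrays (log2 difference 1.13, SE 0.08, adjusted p = 1.9e-07), and differed by 0.58 as the mean over probe sets. The sensors Ifih1 and Ddx58 fell by 0.81 and 0.76. Gbp7 and Gbp3 fell by 1.20 and 0.95, while Gbp2 (0.04), Gbp6 and Iigp1, which stood far above their 0 h levels at 4 h, missed the test, and Ifng itself rose as given above.

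Among the 10 largest rises in genes with a group mean of at least 7, several belong to none of these groups and are given here with Ccl22, of the dendritic cell list. Tg, the thyroglobulin precursor of thyroid hormone, read 4.56, 4.37 and 3.99 on the 4 h arrays and 8.83, 9.09 and 8.88 on the 14 h arrays (log2 difference 4.63, SE 0.11, adjusted p = 7.1e-12), having been at the lowest values at 0 h. Ccl22, a chemokine that attracts Ccr4-bearing cells, read 3.23, 3.10 and 3.23 on the 4 h arrays and 7.73, 7.57 and 7.57 on the 14 h arrays (log2 difference 4.44, SE 0.12, adjusted p = 1.1e-11). Selp, the adhesion molecule P-selectin, read 4.24, 4.30 and 3.15 on the 4 h arrays and 7.11, 6.96 and 7.18 on the 14 h arrays (log2 difference 3.18, SE 0.21, adjusted p = 8.6e-08). In all 3 the 14 h arrays lay far above the 4 h arrays, and the rule that chose them required arrays that do not overlap. Ccl22 is a dendritic cell marker on the list above, and Selp is also a platelet gene: Pf4 rose by 2.33, Ppbp, Itga2b, Gp1bb and Gp9 lay near the lowest value in both groups, and the summed platelet signal was 4.73 to 4.97 at 4 h and 5.93 to 6.20 at 14 h. Ptms, parathymosin, rose by 2.54, and Fignl1, an ATPase of DNA repair, by 2.47. Fignl1 differed by 1.23 as the mean over probe sets.

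Among the 10 largest falls chosen the same way were S100a9 and S100a8, calcium-binding proteins of neutrophils and monocytes. S100a8 read 10.58, 10.08 and 9.91 on the 4 h arrays and 4.53, 5.04 and 4.44 on the 14 h arrays and S100a9 8.79, 8.48 and 8.69 on the 4 h arrays and 2.65, 2.65 and 2.65 on the 14 h arrays, the latter a fall of 6.0. Both had been lower at 0 h (7.48 and 6.20) than at 4 h, and the neutrophil markers that fell with them are given above. Mpzl2, an adhesion protein, was raised at 4 h alone, at 7.30, 6.94 and 6.87 on the 4 h arrays and 2.51, 3.16 and 3.01 on the 14 h arrays against 2.32 at 0 h. St6galnac3, a sialyltransferase, read 8.53, 8.60 and 8.64 on the 4 h arrays and 5.12, 4.70 and 3.67 on the 14 h arrays, Prag1, a pseudokinase, 8.18, 7.95 and 8.07 on the 4 h arrays and 4.30, 4.13 and 4.30 on the 14 h arrays, and Ttc28 fell by 3.09. Vmn2r84, annotated as a vomeronasal receptor, fell by 3.02 and Ctse, the protease cathepsin E, by 2.80 between the times, having averaged 11.70 at 0 h; as means over probe sets Prag1 differed by -1.91 and Ctse by -1.75. In each of these genes every 14 h array lay below every 4 h array, which the rule that chose them required.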

How the data were processed

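RNA from the cells was labelled from 100 ng per sample with an Affymetrix 3′ kit and hybridised to 15 arrays, per the labels' protocols. The authors deposited 1 table of log2 values after GCRMA background correction and normalization, per the labels; the GCRMA version was not given in the sources used here. Of its 45101 probe sets 34958 carry 1 gene symbol in the platform annotation, 932 several and 9211 none, and only the first kind was used. A gene was read from its brightest probe set by the mean of all 15 arrays, and it was tested where any group averaged 5 or more. limma 3.58.1 in R 4.3.3 fitted group means over all 15 arrays, which share 1 estimate of the spread, and p-values were adjusted with the Benjamini-Hochberg method over the 9045 tested genes. Adjusted p values throughout are limma's, and 0.05 was the threshold. The procedure was also run on simulated data with independent noise and few changed genes. That run held no differences of preparation, sex or array quality, so it says nothing about their effect here. Depth has no meaning for arrays, and their number, 3 per group, limits the precision.

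The members and gene lists were chosen with earlier results of these data known. The genes named by rule were Myc, the 10 largest rises and 10 largest falls among called genes with a group mean of at least 7 and no overlap between arrays, up to 4 called members of each list by size, the 2 brightest members where fewer than 2 were called, called members whose sign opposed the list's median, and called cell type markers. Other named members were chosen after their values were seen. Summed marker signals are log2 of the sum of unlogged values. Alternatives changed the arrays in the fit, the normalization, the level filter, the probe set rule, the variance prior and the treatment of the arrays with a weak spike-in. Promoter sequences are RefSeq's, build GRCm38.p6, and genes without an entry were left out of promoter shares.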

Additional observations from a re-analysis of the deposited data

How the results depend on the processing

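The count of called genes (4427) was 4230 in a fit of the 6 arrays compared, 4516 with the 9 T cell arrays, 4491, 4590 and 4519 with array medians set equal, quantile or cyclic loess normalization, 4115 with no level filter, 4051 with the filter at 7 and 4531 with a trend and robust prior. Leaving out each of the 6 arrays in turn gave 3819 to 4337 calls, of which 675 to 715 were at least 2-fold, and without both weak spike-in arrays there were 4432. The mean over all probe sets of a gene gave 4004 calls and lowered the genes at least 2-fold lower from 300 to 194. The same-numbered 4 h and 14 h arrays deviated from their group means with correlations of -0.13, -0.26 and 0.04. Arrays of different number had -0.08 to 0.20. With 3 arrays per group, these values cannot decide whether the numbers pair the samples. The fit with a replicate block called 3226 genes (1812 higher, 1414 lower, 665 at least 2-fold), and lowered the higher counts of the respiratory chain from 28 to 15, the proteasome from 27 to 15 and the tricarboxylic acid cycle from 13 to 8. Of 6943 combinations of a named gene and an alternative, 6629 stayed on the same side of the threshold, 268 lost a call and 41 gained one. In 48 combinations, over 18 genes, a difference called in neither fit changed sign, among them Myc (-0.29 with the spike-in as a covariate and -0.31 without 4 h array 1) and otherwise differences of at most 0.18. The 5 with another sign and a call in either fit were, under the mean over all probe sets, Bub3 (-0.15), Brix1 (-0.13) and Clock (-0.19), and Ncl with the spike-in as a covariate (-0.18) and without both weak arrays (-0.19). The medians of the quiescence, polyamine, antiviral, integrated stress response and inhibitory receptor lists, all within 0.05 of 0, changed sign in at least 1 setting. List medians farther from 0 than the spread between replicates that changed sign or went to 0 were those of the interferon gamma genes with array medians set equal (-0.0034 from 0.04), cytokines (0.058 from -0.23), dendritic cells (0) and stromal cells (0) without the level filter, splicing factors with the mean over probe sets (0.039 from -0.05), and costimulatory genes without 4 h array 3 (0.013 from -0.05). The cause of these changes was not tested. Genes near the lowest value give lower bounds of change, and the sex of the mice, the preparation and the time with ConA cannot be told apart.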

Other observations

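Outside the lists and the level used to name genes, some further large differences were seen, chosen after their values were known. Il12rb1, a chain of the interleukin 12 receptor, read 2.95, 2.95 and 3.18 on the 4 h arrays and 6.63, 6.60 and 6.50 on the 14 h arrays (log2 difference 3.55, SE 0.12, adjusted p = 8.8e-11). Chek1, the kinase of the replication checkpoint, rose by 2.85 and Dtl, which targets the licensing factor Cdt1 for degradation, by 2.97, with 4 h levels under 4 in both. Crabp2, a carrier of retinoic acid, rose by 2.97 and Prss16, a serine protease of the thymus, by 3.03, from near the lowest value at 0 h and 4 h. Pdlim4, an adaptor of the actin skeleton, read 2.33, 2.33 and 2.33 on the 4 h arrays and 5.38, 5.95 and 6.02 on the 14 h arrays and had been at 7.84 on average at 0 h. In each of these genes every 14 h array lay above every 4 h array.

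Also chosen after their values were known, Il1b, Ptgs2 and Clec4d are genes that myeloid cells also express. Il1b, which encodes interleukin 1 beta, read 6.80, 6.88 and 7.14 on the 4 h arrays and 3.35, 3.65 and 3.65 on the 14 h arrays (log2 difference -3.39, SE 0.15, adjusted p = 1.3e-09), against 3.97 at 0 h. Ptgs2, the inducible cyclooxygenase, fell by 3.47 and Clec4d, a C-type lectin receptor, by 3.81, and both ended near the lowest value. The neutrophil markers S100a8 and S100a9 were also highest at 4 h, though above their 14 h level already at 0 h, whereas Lyz1, Lyz2 and Mpeg1 of the monocyte and macrophage list were highest at 0 h, and the part of such cells was not tested. Tmem163, a zinc transporter, fell by 3.50 between 4 h and 14 h and had averaged 8.95 at 0 h. Of 4224 genes with at least 2 probe sets at the level filter, 185 had probe sets called in opposite directions.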
